A study of Mus musculus with 8 samples.

Results

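Of the 19575 OCT4 regions called on mouse chromosomes 1 to 19 and X in 6 CUT&RUN libraries, 1350 lay inside long non-coding RNA (lncRNA) genes. A region is a distinct start and end in a list of peaks. Its summit is the position with the highest −log10 q, the caller's measure of how significant the enrichment over the IgG control is. A region counted as inside a lncRNA gene when its summit lay in the span of a RefSeq lncRNA gene, outside every protein-coding span, and more than 1000 bp from every protein-coding 5′ end in GRCm38.p6. With the remaining sequences, such as unplaced contigs, the lists held 20156 regions. A summit fell in a lncRNA span in 1653 regions, of which 277 were also in a protein-coding span and 26 others were within the limit of distance. The region kept closest to a coding 5′ end lay 1072 bp away, and the farthest one dropped for this reason lay 959 bp away.

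All libraries came from male E14 embryonic stem cells, for which the labels also give the strain C57BL/6J, grown without feeders in N2B27+2i medium. CUT&RUN tethers a nuclease to an antibody, here against OCT4, and sequences the fragments cut from the bound chromatin. Fragments went into conventional libraries, which do not read cytosine modification, into bisulfite libraries, of which only methylated reads entered peak calling, or into hmC-Seal libraries, which pull down fragments carrying 5-hydroxymethylcytosine. Each preparation had 2 OCT4 libraries labelled as replicates, with an input of 5 ng (conventional) or 30 ng (bisulfite and hmC-Seal). IgG libraries served as controls for peak calling and were not analysed here on their own. The lists carry no read totals, and the mean coverage estimated from them was 0.348 and 0.302 fragments (conventional), 0.824 and 0.887 (bisulfite) and 0.716 and 0.156 (hmC-Seal). Here and below, a pair of values gives replicate 1 before replicate 2. The libraries therefore differed in depth both between and within preparations, with hmC-Seal replicate 2 the shallowest.

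OCT4, the POU-domain factor encoded by Pou5f1, keeps embryonic stem cells pluripotent and binds an octamer motif, often beside a motif of its partner SOX2. Many of its binding sites are distal enhancers, and a share of these lies within transcription units of lncRNAs, some of which are named for their expression in pluripotent cells. DNA methyltransferases place methyl groups on cytosine, and TET enzymes oxidise them to the hydroxymethyl form, so that modified cytosine can be present at sites that a factor contacts.

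Sequences of RefSeq promoter windows, which run from 250 bases before to 50 bases after a transcript start, show the DNA at lncRNA starts near members, and 2 of the 4 printed windows hold the summit of their member. They are printed for the 3 lncRNA genes among the sites called in 5 or 6 libraries with a summit within 1000 bp of a RefSeq start, and for 1 further window that holds a summit and an octamer and was chosen after its values were seen. The 2 other windows that hold a summit, overlapping ones of Gm35946 in the span of Pax6os1, have no octamer and are not printed. Capitals mark the octamer ATGCAAAT or the related ATGCTAAT on either strand. Gm34201, whose window lies at a start inside the gene, with the summit 5209 bp from the 5′ end of its span, is shown from the minus strand of GRCm38.p6 at chr15:84622114-84622413, Gm39024 from the plus strand at chr7:63956138-63956437, Gm36038 from the plus strand at chr2:172576866-172577165, and 4833407H14Rik, whose start lies inside the span of Mirt1, from the plus strand at chr19:53460372-53460671. The member at the last was called in bisulfite replicate 1 and hmC-Seal replicate 1 only.
Gm34201: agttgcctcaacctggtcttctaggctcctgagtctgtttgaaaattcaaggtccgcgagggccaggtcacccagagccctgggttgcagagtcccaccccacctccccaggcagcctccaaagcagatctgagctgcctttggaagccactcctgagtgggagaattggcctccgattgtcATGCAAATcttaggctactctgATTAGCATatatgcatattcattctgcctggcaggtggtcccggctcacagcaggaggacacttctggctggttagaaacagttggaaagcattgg
Gm39024: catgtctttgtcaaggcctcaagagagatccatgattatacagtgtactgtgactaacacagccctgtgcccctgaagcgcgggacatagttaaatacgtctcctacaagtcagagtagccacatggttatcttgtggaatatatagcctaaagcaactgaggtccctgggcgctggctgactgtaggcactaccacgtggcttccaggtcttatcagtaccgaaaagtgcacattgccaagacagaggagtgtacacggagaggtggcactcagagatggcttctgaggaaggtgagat
Gm36038: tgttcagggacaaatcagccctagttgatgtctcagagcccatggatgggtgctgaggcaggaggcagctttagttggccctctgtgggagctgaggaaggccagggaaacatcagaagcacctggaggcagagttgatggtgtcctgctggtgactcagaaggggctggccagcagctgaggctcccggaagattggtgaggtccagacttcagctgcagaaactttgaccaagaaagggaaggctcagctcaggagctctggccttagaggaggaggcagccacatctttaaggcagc
4833407H14Rik: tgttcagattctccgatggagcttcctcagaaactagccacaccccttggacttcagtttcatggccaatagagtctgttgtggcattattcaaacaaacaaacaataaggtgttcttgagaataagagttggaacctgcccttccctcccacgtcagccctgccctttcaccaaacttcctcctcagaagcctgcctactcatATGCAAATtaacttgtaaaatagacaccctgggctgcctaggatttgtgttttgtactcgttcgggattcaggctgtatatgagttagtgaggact

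In the Gm34201 window the middle of the octamer lay 2.5 bp from the summit and that of ATGCTAAT, on the other strand, 24.5 bp from it. The octamer of the 4833407H14Rik window lay 61.5 bp from the summit, and that of the only other such window, at Gm52564, lay 503.5 bp from its summit and is not printed. The Gm39024 and Gm36038 windows held neither string, and their summits lay 873 and 340 bp downstream of the start, outside the printed bases. The 4 windows held 4, 7, 1 and 4 CG dinucleotides in the order printed, against a median of 4 over the 11575 windows of lncRNA genes and 7 over all 32851 windows. Of all windows, 570 (1.74%) held ATGCAAAT, 302 (0.919%) held ATGCTAAT and 4129 (12.6%) held CATTGT, the core of SOX motifs, which none of the 4 printed windows held. No string contains another, and both strands were searched. Over the 55 windows that held a summit or lay within 1000 bp of a summit in their own gene, 3 (5.45%) held ATGCAAAT. Several of these 55 windows, though none of those printed, held CATTGT, as did 15.4% of all lncRNA windows. A match is a match of letters and says nothing on its own about contact by OCT4.

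The whole lists held 186 and 200 (conventional), 2682 and 1947 (bisulfite) and 3499 and 11061 (hmC-Seal) regions on these chromosomes. Their lengths did not overlap between preparations. The number of regions inside lncRNA genes was 17 and 19 (conventional), 175 and 135 (bisulfite) and 283 and 721 (hmC-Seal). Means were 18 ± 1.41 for conventional, 155 ± 28.3 for bisulfite and 502 ± 309.7 for hmC-Seal libraries (SD, n = 2 each). The groups did not overlap, although the spread of the hmC-Seal pair was more than the difference between its lower library and the bisulfite mean. The ratio of means was 8.61 for bisulfite to conventional, 27.9 for hmC-Seal to conventional and 3.24 for hmC-Seal to bisulfite (exact permutation tests on the log10 scale, two-sided, p = 0.333 for each, the smallest p that 2 libraries against 2 allow). Without hmC-Seal replicate 2 the ratio to conventional was 15.7 and the ratio to bisulfite 1.83, and with regions of at least 10 estimated fragments these ratios were 11 and 1.24. With that minimum the hmC-Seal libraries kept 252 and 99 members and the bisulfite libraries 156 and 127, so these groups overlapped (exact permutation test, two-sided p = 1). With a −log10 q of at least 3 the ratio to conventional was 16.5 and the ratio to bisulfite 2.16. The size of the difference between hmC-Seal and bisulfite thus changed with each of these choices, and its cause was not tested.

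As a share of each list, regions inside lncRNA genes made up 9.14% of 186 regions in conventional replicate 1 (95% Wilson interval 5.78% to 14.1%) and 9.5% of 200 in conventional replicate 2 (6.17% to 14.4%). They made up 6.52% of 2682 regions in bisulfite replicate 1 (5.65% to 7.52%) and 6.93% of 1947 in bisulfite replicate 2 (5.89% to 8.15%). In hmC-Seal replicate 1 they were 8.09% of 3499 regions (7.23% to 9.04%), and in hmC-Seal replicate 2 they were 6.52% of 11061 (6.07% to 6.99%). These intervals cover counting error only, because regions are not independent replicates.

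Placement at random along each chromosome gives a reference for these shares. Bases that meet the rule make up 6.62% of the chromosomes together, from 2.87% of chromosome X to 8.84% of chromosome 13. Weighted by the chromosomes of each list, uniform placement would put 6.82% and 6.87% of conventional regions inside lncRNA genes, 6.65% and 6.67% of bisulfite regions, and 6.72% and 6.64% of hmC-Seal regions. The observed share was 1.34 and 1.38 times this value in the conventional libraries, 0.981 and 1.04 times in the bisulfite libraries, and 1.2 and 0.981 times in the hmC-Seal libraries. The uniform value lay below the Wilson interval in hmC-Seal replicate 1 and inside it in the other 5 libraries.

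**Figure D1:**
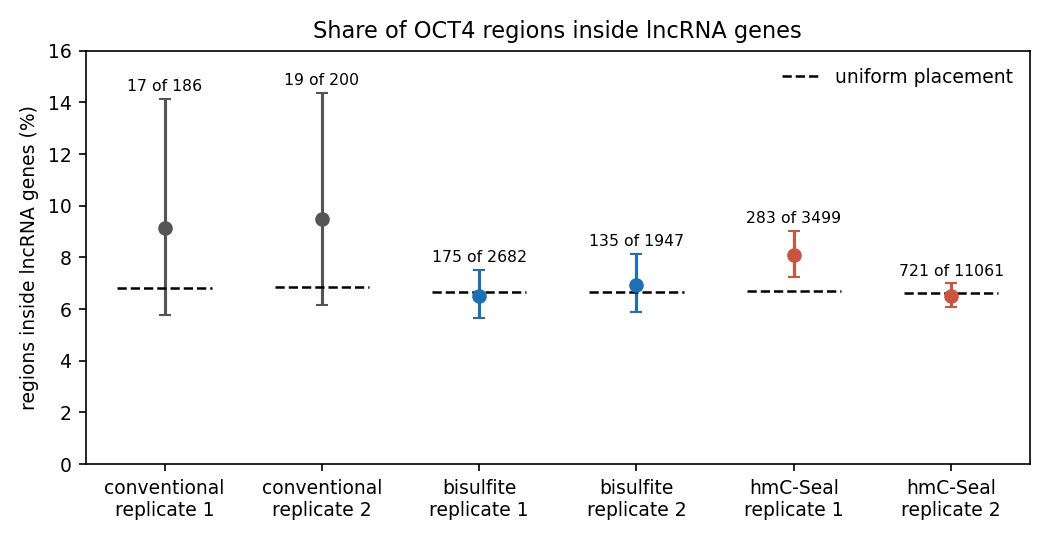
Share of the OCT4 regions of each library that lay inside lncRNA genes, in percent, with 95% Wilson intervals (bars) and the number of regions. Dashed lines give the share under uniform placement on the same chromosomes. In 5 of the 6 libraries the interval holds the dashed line, and in hmC-Seal replicate 1 (8.09%) it lies above it.

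Between preparations the share differed by −2.59 percentage points for bisulfite minus conventional and by −2.02 for hmC-Seal minus conventional (two-sided exact permutation tests, p = 0.333 for each, the smallest possible here). Both differences were larger than the SD of 0.255 in conventional and 0.289 in bisulfite libraries, with means of 9.32% and 6.73%, whereas the hmC-Seal mean of 7.30% had an SD of 1.11. The difference of −2.02 became −1.23 without hmC-Seal replicate 2, −2.80 without hmC-Seal replicate 1 and −1.20 with curated lncRNA genes only. The Wilson intervals of the conventional libraries, with 17 and 19 members, overlapped those of all 4 other libraries. For hmC-Seal minus bisulfite it came to 0.574 (exact permutation test, two-sided p = 1), and it turned to −0.211 without hmC-Seal replicate 1. With lists of equal length, an alternative chosen after seeing the data, hmC-Seal minus conventional was −1.34 and the groups overlapped, with 10.8% in hmC-Seal replicate 1 above 9.14% and 9.68% in the conventional libraries (exact permutation test, two-sided p = 1). Each list also held regions in protein-coding spans, from 30.0% in bisulfite replicate 1 to 36.1% in hmC-Seal replicate 2, and the part near coding starts was at most 3.5%, in conventional replicate 2.

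Enrichment at the members was close to that of other regions of the same list in the bisulfite and hmC-Seal libraries, and above it in the conventional ones. The fold is that of the lists, in which 1 is added to both the pileup and the IgG background, so at low coverage it falls below the plain ratio. The median fold of members was 10.1 and 9.89 for conventional members, against 7.62 and 7.29 for other regions. In the bisulfite libraries it was 5.80 and 6.28, against 6.00 and 6.28, and in the hmC-Seal libraries 7.38 and 4.32, against 7.29 and 4.32. The difference from the rest of the list was thus largest for the few conventional members, and the fold values were not normalized between libraries. Members had a median width of 140 and 143 bp (conventional), 100.0 and 110 bp (bisulfite) and 113 and 100.0 bp (hmC-Seal).

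The fragments counted at a summit, recovered from the fold and the −log10 p, set apart hmC-Seal replicate 2. Its members had a median of 5 fragments, and 319 of the 639 with an estimate (49.9%) had at most 4. Medians of members in the other libraries were 17 and 14.5 (conventional), 19 and 18 (bisulfite) and 17 (hmC-Seal replicate 1). The remaining regions of those lists had medians of 13 and 12, 19 and 19, and 17 in the same order. No region with an estimate had 4 or fewer in those libraries, whether a member or not. A raised IgG background at the summit, above 2 times that of the genome, was found for 45.6% and 33.3% of the bisulfite members with an estimate, 20% and 18.3% of the hmC-Seal members, and 1 of 17 and 0 of 18 conventional members. Other regions had shares of 41.7% and 34.0% (bisulfite), 22.3% and 17.4% (hmC-Seal) and 10.5% and 13.7% (conventional). The members were thus near their lists in the bisulfite and hmC-Seal libraries and below them in the conventional ones, where they were few.

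**Figure D2:**
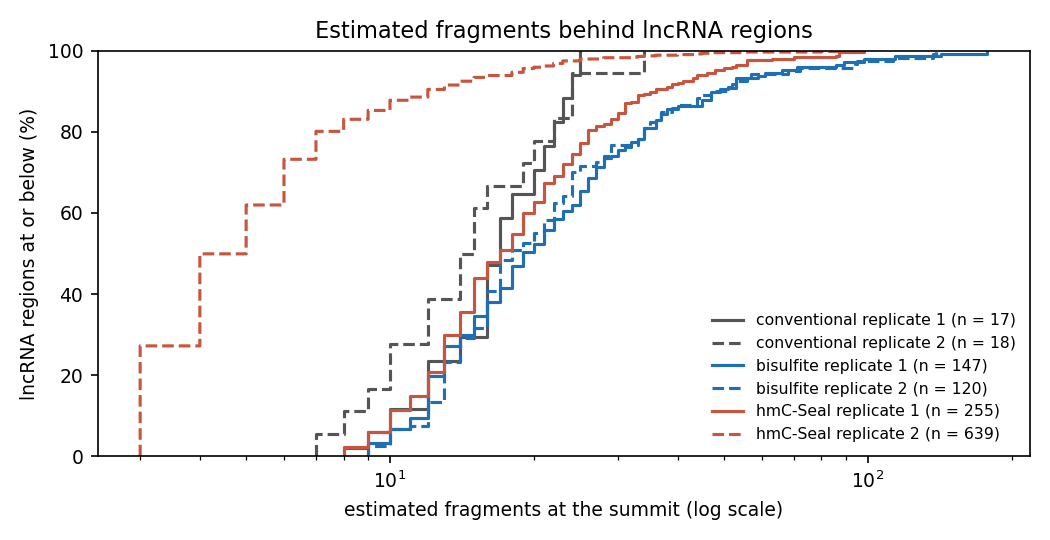
Cumulative share of the regions inside lncRNA genes, in percent, by the estimated number of fragments at the summit (log scale), with 1 line per library and the number of regions that have an estimate. The line of hmC-Seal replicate 2 (dashed, red) reaches 49.9% at 4 fragments, where the other 5 lines are still at 0.

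Replicates shared the members to different degrees. Of the 17 members of conventional replicate 1, 12 (70.6%, 46.9% to 86.7%) overlapped a region of replicate 2 by at least 1 bp, against 57% of all regions. In the other direction it was 12 of 19 (63.2%, 41.0% to 80.9%), against 53% of all regions. The mean of both directions was 66.9%, and the share under uniform placement was 0.00250% and 0.00241%. Both intervals hold the share of all regions, so at this depth the members could not be told apart from their lists.

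Of the 175 members of bisulfite replicate 1, 60 (34.3%, 27.7% to 41.6%) overlapped a region of bisulfite replicate 2, against 36.7% of all regions, and 60 of the 135 members of replicate 2 (44.4%, 36.3% to 52.9%) overlapped one of replicate 1, against 50.5% of all regions. For the hmC-Seal libraries it was 76 of 283 members of replicate 1 (26.9%, 22.0% to 32.3%), against 29.7% of all regions, and 76 of 721 members of replicate 2 (10.5%, 8.50% to 13.0%), against 9.39% of all regions. The means of both directions were 39.4% for bisulfite and 18.7% for hmC-Seal. Every one of these 4 shares was near that of the whole list, and uniform placement would give between 0.0181% and 0.102%. Agreement thus differed more between lists than between the members and the rest of a list, and it was lowest for the library with the most regions.

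**Figure D3:**
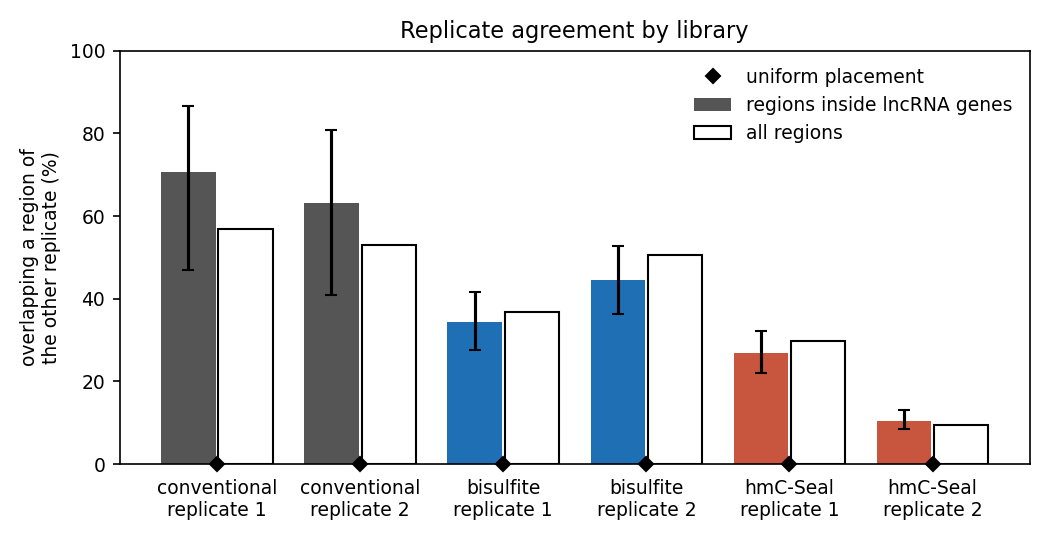
Share of the regions of each library that overlapped a region of the other replicate of the same preparation, in percent. Filled bars are regions inside lncRNA genes with 95% Wilson intervals, coloured by preparation, open bars are all regions, and diamonds mark uniform placement, which is at most 0.102%. Filled bars run from 10.5% (hmC-Seal replicate 2) to 70.6% (conventional replicate 1) and each interval holds the open bar beside it.

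Agreement moved with the number of fragments in hmC-Seal replicate 2. There, 11 of the 319 members with at most 4 fragments (3.45%) were also called in hmC-Seal replicate 1, 31 of 226 with 5 to 9 fragments (13.7%), and 21 of 94 with at least 10 (22.3%). The same shares over all regions of that library were 3.26%, 12% and 19.8%. Its members with few fragments were seldom called again, as were its other regions with few fragments. The other libraries had at most 15 members with 5 to 9 fragments. In hmC-Seal replicate 1, 0 of the 15 were called again, against 29.6% of members with at least 10. It was 1 of 5 and 0 of 3 in the bisulfite libraries, against 35.2% and 50.4%. In conventional replicate 1 it was 0 of 1, against 75%, and in conventional replicate 2 it was 2 of 3, against 66.7%. Over all regions, the share was lower with 5 to 9 fragments than with at least 10 in each of these libraries.

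With the full lists, most members of the conventional libraries were also called in the other preparations. In bisulfite replicates 1 and 2, 11 and 13 of the 17 members of conventional replicate 1 and 12 and 15 of the 19 members of conventional replicate 2 were called, a mean over the 4 pairs of libraries of 70.8% ± 8.04 (SD), against 70.9% of all regions pooled over the pairs. In hmC-Seal replicates 1 and 2 it was 15 and 12 of the 17 and 15 and 13 of the 19, a mean of 76.5% ± 9.02, against 67.4% of all regions pooled likewise. Uniform placement would give a mean of 0.0266% and 0.0814%. With every list reduced to the 186 regions of highest −log10 q, the means fell to 34.2% ± 17.6 in bisulfite and 25.7% ± 29.7 in hmC-Seal libraries. These SDs over 4 pairs were large, and the same shares over all regions at that length are not given here, so the fall describes the members only. With the full lists, conventional members were recovered in the bisulfite libraries about as often as conventional regions in general.

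Members of bisulfite replicate 1 were called in hmC-Seal replicates 1 and 2 in 63 and 45 of 175 cases. Those of bisulfite replicate 2 were called in 74 and 48 of 135 cases. The mean was 38% ± 12.2 (SD over 4 pairs), against a mean of 35.7% of all regions. Pooled over the pairs it was 37.1% of members, against 34.7% of all regions. In reverse, with means over pairs for members and for all regions alike, the share of hmC-Seal members called in a bisulfite library was 15.3%, against 16.8% of all regions. Pooled over the pairs it was 11.5%, against 11%, so the order of members and all regions turned with the way of averaging. The mean share called in a conventional library was 3.52% for hmC-Seal members, against 2.66% of all regions, and 8.47% for bisulfite members, against 6.06%. The difference between directions follows the lengths of the lists, which were unequal. The names of the peaks carry the same IgG tag in the bisulfite and hmC-Seal lists, and the part of a shared control in this overlap was not tested.

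Joined across libraries where they overlapped, the members formed 1066 stretches in 890 of the 12697 lncRNA genes on these chromosomes. Of these, 901 (84.5%) were called in 1 library, 102 in 2, 29 in 3, 19 in 4, 8 in 5 and 7 in all 6. Such counts over all regions are not given here, so those in this and later paragraphs describe the members only. Stretches called in 1 library were mostly those of hmC-Seal replicate 2 (626), followed by hmC-Seal replicate 1 (155), bisulfite replicate 1 (86) and bisulfite replicate 2 (34), and no stretch was called in 1 conventional library alone. Of the 24 stretches called in a conventional library, 22 were also called in an hmC-Seal and 19 in a bisulfite library, and 2 in neither. A further 93 stretches were called in both a bisulfite and an hmC-Seal library and in no conventional one, of which 17 were called in all 4. For whole lists, only the overlaps between pairs of libraries given above serve as a reference.

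**Figure D4:**
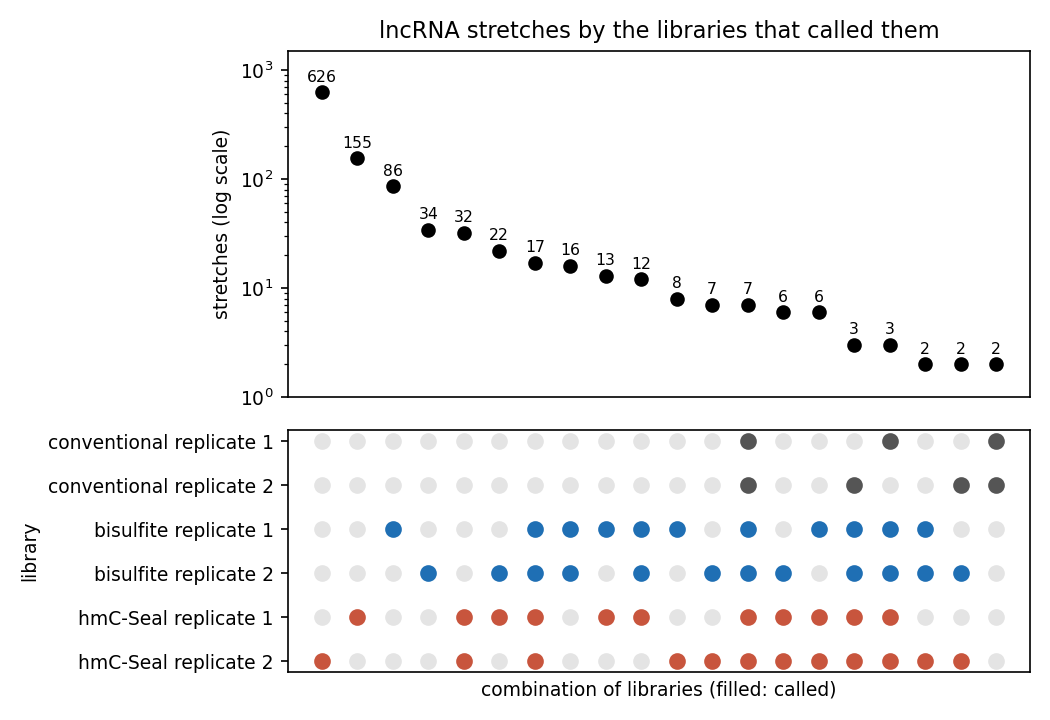
Stretches inside lncRNA genes by the libraries that called them. The upper panel gives the number of stretches (log scale) for each combination with at least 2 stretches, and the lower panel marks the libraries of that combination. The combination of hmC-Seal replicate 2 alone holds 626 of 1066 stretches, and 7 stretches were called in all 6 libraries.

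Stretches called in all 6 libraries numbered 7, against 4 with at least 10 fragments and 3 with curated lncRNA genes only. The 7 stretches lay in 7 lncRNA genes known mainly by number, and the gene table does not tell exon from intron. A pair of them lay in Gm15270, upstream of Ccn2, the gene of a matricellular growth factor. At chr10:24558449-24558642, also inside Gm36089, the listed fold came to 12.7 and 15.1 (conventional), 21.9 and 23.7 (bisulfite) and 26.2 and 8.65 (hmC-Seal). At chr10:24590616-24590927, with its summit 4688 bp from the Ccn2 start, it was 12.2 and 10.5, 15.2 and 16.5, and 27.3 and 6.05 in the same order. The estimated fragments at the former were 21 and 22, 45 and 53, and 50 and 9, so the lower fold of hmC-Seal replicate 2 went with fewer fragments.

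In Gm34098, 23432 bp from the start of Fam124b, the stretch at chr1:80237467-80237804 had a fold of 11 and 16.4 (conventional), 16.2 and 15.4 (bisulfite) and 25.2 and 9.51 (hmC-Seal). In Gm5089, beside Zic5, which encodes a zinc finger factor of neural development, the stretch at chr14:122416384-122416743 had 8.87 and 14.7, 9.58 and 15.4, and 36.5 and 10.4 in the same order. Because of the added 1 and the unequal coverage, these folds do not rank the libraries. The stretch in Gm33489 at chr13:44018864-44019045 had 14.4 and 9.89, 10.2 and 8.32, and 17.1 and 7.08, and that in Gm38606 at chr18:31568799-31569066 had 8.87 and 10.0, 12.2 and 15.0, and 27.7 and 9.27. The last lay in Gm39024, 18346 bp from the start of Klf13, a Krüppel-like factor, at chr7:63957129-63957378, with 13.3 and 13.8, 10.2 and 6.02, and 18.3 and 9.08, and its promoter is printed above. The 7 stretches lay between 4688 and 233875 bp from the nearest coding 5′ end.

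**Figure D5:**
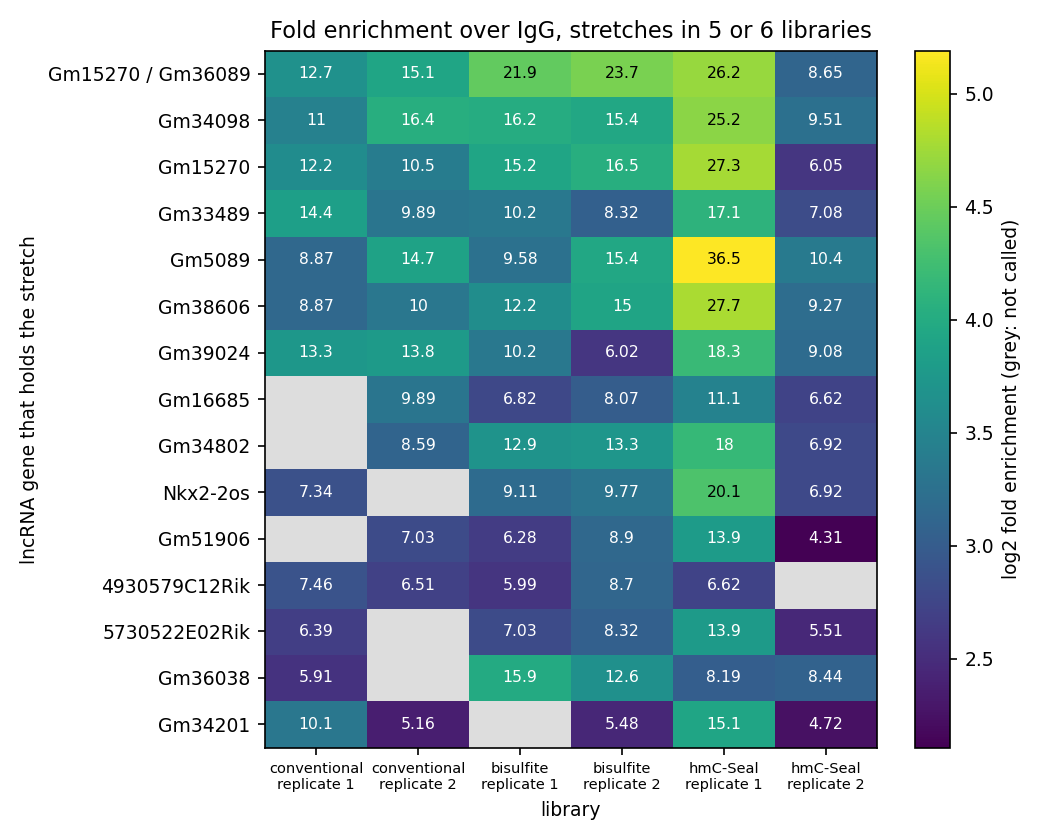
Listed fold enrichment (pileup plus 1 over IgG background plus 1) at the 15 stretches inside lncRNA genes called in 5 or 6 libraries, with stretches in rows, named by their lncRNA gene, and libraries in columns. The colour gives the log2 fold and the printed number the fold, and grey marks libraries without a call. The upper 7 rows are called in all 6 libraries, and 6 of the 8 grey cells are in conventional columns. Coverage is unequal, so colours do not rank the libraries.

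Of the 8 stretches called in 5 libraries, 3 lacked conventional replicate 1 (Gm16685, Gm34802 and Gm51906), 3 lacked conventional replicate 2 (Nkx2-2os, 5730522E02Rik and Gm36038), 1 lacked bisulfite replicate 1 (Gm34201) and 1 lacked hmC-Seal replicate 2 (4930579C12Rik). Nkx2-2os is named for Nkx2-2, a homeobox gene of neural and pancreatic development. Its stretch at chr2:147292881-147293249, 109043 bp from the 5′ end of Nkx2-2os and 68804 bp from the nearest coding 5′ end, that of Pax1, had a fold of 7.34 in conventional replicate 1, with 9.11 and 9.77 (bisulfite) and 20.1 and 6.92 (hmC-Seal). Gm36038 lies near Tfap2c, the gene of the factor AP-2 gamma, and its stretch at chr2:172577314-172577633 had 5.91 in conventional replicate 1, with 15.9 and 12.6 (bisulfite) and 8.19 and 8.44 (hmC-Seal). The Gm34201 stretch, whose octamer is printed above, had 10.1 and 5.16 (conventional), 5.48 in bisulfite replicate 2, and 15.1 and 4.72 (hmC-Seal).

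Stretches called in both libraries of 1 preparation only numbered 2 for conventional, 16 for bisulfite and 32 for hmC-Seal libraries. Whether such stretches are as frequent outside lncRNA genes was not tested. The conventional pair lay in Banf2os, with a fold of 10.5 and 13.1 in replicates 1 and 2, and in LOC108167564, with 8.87 and 9.45. The 3 hmC-Seal stretches of best rank lay in Gm30762, with 45.2 and 35.5, in G630055G22Rik, with 32.9 and 76.1, and in Gm15212, with 12.4 and 6.89. The first 2 of these exceeded the fold of every stretch called in all 6 libraries in hmC-Seal replicate 2.

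The 3 bisulfite stretches of best rank had low folds on a high IgG background. In 2610307P16Rik the fold was 5.13 and 3.70, with 178 and 139 estimated fragments, over an estimated background of 26.0 in both, against 0.637 and 0.631 for the genome. In Gm12031 it was 4.51 and 3.61 with 98 and 95 fragments, over a background of 16 and 18, and in Gm36640 it was 2.94 and 2.81. These sites thus held many fragments in the IgG control too, and the part of that background in their being called in bisulfite libraries only was not tested.

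Among 44 genes of a list of known lncRNAs that are in the gene table, 6 held a stretch (13.6%), against 7.01% of all lncRNA genes. The list takes in lncRNAs of pluripotency, imprinting, X inactivation and development, and others such as Malat1, Neat1 and Gas5. The list was drawn up with earlier results of these data known and includes Gm32362 for its place upstream of Pou5f1, so this comparison is a description only. Longer genes held a stretch more often, as given below, and the comparison was not matched for span. The 6 genes were Sox2ot, Gm32362, Lncenc1, Platr10, Rmst and Pvt1. Xist, the RNA of X inactivation, and the imprinted Meg3 and H19 were among the 38 without one. Sox2ot, within which Sox2 itself is encoded, held a stretch at chr3:34653989-34654120, 4063 bp from the Sox2 start, with a fold of 8.16 and 8.46 (bisulfite) and 19.1 and 5.19 (hmC-Seal), and no call in a conventional library. Its other stretch, at chr3:34668549-34668665, had 6.75 in bisulfite replicate 1 and 7.29 and 6.05 (hmC-Seal). Platr10, a transcript named for its association with pluripotency, held 4 stretches in a span of 8291 bp, of which 3 were called in at least 2 libraries. The 9 other Platr genes of the list that are in the table held none, and Platr8, Platr11 and Platr29, which are not on the list, held 1 each. The Platr10 stretch at chr3:75650556-75650676 had 6.25 and 5.80 (bisulfite) and 9.56 and 6.69 (hmC-Seal). Neither Sox2ot nor Platr10 held a conventional region that met the rule.

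Within 10 kb of the start of 20 core pluripotency genes, 3 stretches were found, that of Sox2ot and a pair in Gm32362, upstream of Pou5f1. The Gm32362 stretch at chr17:35503344-35503820, 2613 bp from the Pou5f1 start, had a fold of 22.9 in conventional replicate 2, 6.92 in bisulfite replicate 2 and 5.52 in hmC-Seal replicate 2. The one at chr17:35503955-35504539, 1761 bp from it, had 11, 8.17 and 5.72 in the same libraries. Both were called in replicate 2 of every preparation and in replicate 1 of none. The estimated IgG background was 5.00 and 4.00 in bisulfite replicate 2, against 0.631 for the genome, 0.245 in conventional replicate 2 at the former, and 1.62 in hmC-Seal replicate 2 at the latter, against 0.156 for the genome. Lncenc1, a lncRNA of embryonic stem cells, held 3 stretches, each called in 1 hmC-Seal library, with folds of 4.22, 5.39 and 5.75. Rmst, a lncRNA of neural differentiation, held 2 and Pvt1, the neighbour of Myc, held 1, each also called in 1 hmC-Seal library.

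By gene, 727 of the 890 lncRNA genes held 1 stretch, 130 held 2 and 33 held at least 3. Gm32647 held most, 7 stretches in a span of 1283931 bp, of which 1 was called in more than 1 library. Next came 7 genes with 4 each, among them Platr10, Gm15270, 4921515E04Rik and 4930474G06Rik. Among the 33 genes with at least 3 stretches, Platr10 led per 100 kb of span with 48.2 stretches, before B430212C06Rik with 13.1, Gm36199 with 9.60, A930001A20Rik with 9.52 and Lncenc1 with 4.79. The number of stretches followed the span, since 51.2% of the 281 genes over 100 kb held a stretch, against 21.6% of those of 30 to 100 kb, 7.66% of those of 10 to 30 kb and 1.73% of those up to 10 kb.

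Within lncRNA genes the stretches were spread much as the bases were. Of the 865 stretches in a gene of known strand, 39 (4.51%, 3.32% to 6.10%) lay within 1000 bp of its 5′ end, against 4.29% of the bases that meet the rule. Within 10 kb it was 319 (36.9%, 33.7% to 40.1%), against 35.1% of these bases. Genes with a curated transcript held 373 of the 1066 stretches (35.0%, 32.2% to 37.9%), against 33.7% of the bases. The median distance to the nearest coding 5′ end was 71946.5 bp, with quartiles of 27054.8 and 210892 bp, against 91402.5 bp for bases that meet the rule. By these measures the stretches differed little from uniform placement, apart from lying somewhat closer to coding starts.

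Distance from a coding start had little bearing on whether more than 1 library called a stretch. In more than 1 library were 20 of the 125 stretches within 10 kb of a coding 5′ end (16.0%), 84 of 494 at 10 to 100 kb (17.0%) and 61 of 447 beyond 100 kb (13.6%). Stretches called in 5 and in all 6 libraries had median distances of 33602.5 and 36875 bp, a description over 8 and 7 stretches. The median was 74048 bp for the 901 stretches called in 1 library. For those called in 2, 3 and 4 libraries it was 65501, 79532 and 96454 bp. By chromosome, the share of regions inside lncRNA genes was highest on chromosome 13 (10.5%, where 8.84% of the bases meet the rule) and lowest on chromosome X (2.81%, where 2.87% do), so both extremes lay where the amount of lncRNA sequence was most and least.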

How the data were processed

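CUT&RUN of OCT4 was analysed from 6 deposited peak lists, with groups and replicate numbers from the labels. The submitters' processing notes and the study's methods name fastp 0.19.4, Bowtie2 2.4.1 for conventional and Bismark 0.22.3 for the other reads, and alignment to GRCm38. Peak calling by the authors used MACS 2 with IgG as control, 1 library at a time, and no calibration to a spike-in, so values of different lists are not normalized to one another. The deposited fold enrichment is a ratio of pileup to IgG background with 1 added to both, which the values match, so it depends on depth, the authors' −log10 p and −log10 q are p-values and q-values at the summit, and the deposited score is derived from −log10 q.

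Peak entries that share both coordinates counted as 1 region, placed at the summit of highest −log10 q. Gene spans came from the RefSeq table of GRCm38.p6, and strands from the RefSeq promoter table or, by symbol, from GENCODE M1. For the 707 protein-coding genes without a strand both ends counted as 5′ ends, and 2796 lncRNA genes without one were left out of distances from the lncRNA start. Uniform placement was computed from lengths, with the last position seen as the end of a chromosome and unmappable stretches kept, so it is approximate. Overlap means at least 1 bp. Fragments and background of a summit were solved from its fold and −log10 p with the caller's Poisson formula, testing integers no higher than 399 with a tolerance of 0.03 of a fragment. The step was added with the lists already in view and gave a number for 82.0% to 88.2% of the regions of a list. Filters used the smallest number that met the values. The step was tested on simulated summits of at least 6 fragments each, so the lower numbers of hmC-Seal replicate 2 were not covered. Preparations were compared with two-sided exact permutation tests over libraries in 6 comparisons, repeated under the alternatives, each limited to p = 0.333 or more. The labels do not say whether replicates were separate cultures, so the spread may be technical.

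The members and lists were chosen with earlier results of these data known. Sites named are the stretches in all 6 libraries, the 3 best ranked by their worst rank in both libraries of 1 preparation only, the listed lncRNA genes, those with most stretches, and stretches within 10 kb of 20 core genes. The stretches called in 5 libraries were named after their values were seen. The study's methods name the same pool for conventional and bisulfite libraries of 1 replicate number. Overlap of conventional members with bisulfite regions was 71.8% within a number and 69.8% across numbers, and over 74 regions called in all 4 libraries the replicate differences in log2 fold had a correlation of 0.0321 across regions. Alternatives were a stricter q-value, other definitions of members and overlap, lists of equal length, a minimum of fragments, leaving out dense bins or replicates, and pairing. Sequence was searched in promoter windows only, and that around other summits was not analysed here. Scripts ran in Python 3.11.15 with scipy 1.17.1, pandas 2.3.3, matplotlib 3.10.9 and numpy 2.4.6.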

Additional observations from a re-analysis of the deposited data

How the results depend on the processing

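Of 157 values under an alternative, 149 kept the direction of a comparison, stayed within 1 SD of the overlap in the report, or stayed within 1.5 times the count of stretches, with no p that could fall below 0.333. These limits are wide: the ratio of hmC-Seal to conventional ran from 11 to 40.1 and that of hmC-Seal to bisulfite from 1.24 to 4.65, agreement of the hmC-Seal replicates from 10.5% to 26.9%, and bisulfite members in hmC-Seal libraries from 27.8% to 45.4%. The share of hmC-Seal minus bisulfite turned to −0.211 without hmC-Seal replicate 1, and leaving out a replicate gave −0.211 to 1.36. With curated lncRNA genes only, 83.5% of conventional members were in bisulfite libraries and 3 stretches in all 6 libraries. With at least 10 fragments, 54.7% of conventional members were in hmC-Seal libraries and 4 stretches in all 6, with 99 of 721 members of hmC-Seal replicate 2 left. With lists of 186 regions each, the bisulfite replicates agreed in 50.3%. At that length 34.2% ± 17.6 and 25.7% ± 29.7 (SD over 4 pairs) of conventional members were in bisulfite and hmC-Seal libraries. The cause was not tested for any of these changes. With a replicate block, the ratios of numbers were 8.55, 25.1 and 2.94 and the differences in share −2.59, −2.02 and 0.574, for bisulfite to conventional, hmC-Seal to conventional and hmC-Seal to bisulfite, and the paired overlaps of conventional members were 71.8% with bisulfite and 78.3% with hmC-Seal. Leaving out each library in turn, chosen after seeing the data, gave 7 to 10 stretches called in all those left. Lists of equal length, also added after seeing the data, gave differences in share of −1.88, −1.34 and 0.538, with p = 1 in place of 0.333 for hmC-Seal minus conventional (exact permutation test). The conventional comparisons rest on 17 and 19 members, and those of hmC-Seal replicate 2 on a median of 5 fragments, and the part of depth in these numbers was not tested.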
